A study of Homo sapiens with 6 samples.

Results

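The small nucleolar RNA (snoRNA) host genes and other well-known long non-coding RNAs were followed through knockdown of LINC02068 in 786-O cells. They were taken from the count table by symbol: every row named SNHG plus a number (28 genes) and 15 genes named singly, GAS5, ZFAS1, EPB41L4A-AS1, DANCR, MALAT1, NEAT1, PVT1, MIR17HG, MIR22HG, H19, FTX, OIP5-AS1, CYTOR, NORAD and TUG1. These 43 genes are among 60649 in the table, and 40 of them are among the 16039 genes expressed enough to test. The 786-O cells, a long-used human line from a clear cell renal carcinoma, carried a short hairpin RNA against LINC02068 (shRNA1 or shRNA2, both labelled as knockdown) or a control hairpin (shControl, labelled WT), with no further treatment and 2 libraries in each of the 3 groups. The labels give neither the vector nor whether the hairpin cells were pools or clones, and they do not say that replicates were separate cultures, so p-values measure the spread between these libraries, which may be technical.

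A snoRNA host gene is a transcription unit whose introns hold snoRNAs, short guides for chemical modification of ribosomal RNA. The intron releases the snoRNA, and the spliced exons remain as a long non-coding RNA that in many hosts is translated briefly and removed by nonsense-mediated decay, the pathway that destroys transcripts with early stop codons. Several hosts start with a run of pyrimidines, as ribosomal protein genes do, and GAS5 takes its name from its rise in growth-arrested cells. MALAT1 and NEAT1 stay in the nucleus, in nuclear speckles and paraspeckles, while MIR17HG and MIR22HG are precursors of microRNAs.

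Total counts per library ran from 15376448 to 37311846, and levels are in CPM, counts-per-million over TMM-scaled library sizes, of which 1 stood for 14.9 to 36 counts. LINC02068 itself was scarce, with 9 and 2 counts in the shRNA1 libraries, 17 and 10 in the shRNA2 libraries and 20 and 32 in the control libraries. Its log2 fold change was -1.46 (standard error, SE, 0.59, edgeR adjusted p = 0.0447) for the mean of both hairpins, and neither hairpin alone passed the test (adjusted p = 0.069 and 0.148). The renal line's markers were present, with 8 of 8 tested and PAX8 at 307 CPM in controls. Of these, 7 were called higher and 1 lower, against 28.6% and 28.9% of all tested genes. The lower one was EPAS1, at 550 CPM in controls and 281 and 283 CPM with shRNA1 and shRNA2 (log2 fold change -0.96, SE 0.03). Of 10 markers of other cell types 4 were expressed enough to test, with none called. PTPRC, CD3E, CDH5 and ALB, which mark leukocytes, T cells, endothelium and liver, had 0 CPM in each group. PECAM1, another endothelial marker, had 4 to 30 counts per library, GFAP had 11 to 41 and MYH11 had 6 to 13. CD68, a macrophage and lysosome gene, stood at 37.7 CPM in controls and 40.9 and 38.1 CPM with each hairpin. Both hairpins were compared with the same 2 control libraries, so the comparisons with each hairpin are not independent of one another.

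The starts of the host genes are shown first because sequence at the start is a feature that the choice of genes did not use. RefSeq on GRCh38.p14 gave a window of 250 bases before to 50 after the first transcribed base for 37 of the 43 genes. A gene can have more than 1 window, as MALAT1 has 2. For each motif below a gene was counted if any of its windows matched. Shares of all windows are per window, so genes and windows are unlike units here. In 7 of these 37 the first base was C followed by 4 pyrimidines (SNHG4, SNHG5, SNHG12, SNHG18, SNHG19, SNHG32 and ZFAS1), against 4.07% of all 35116 windows and 47 of the 63 ribosomal protein genes with a window. RefSeq and GENCODE place some starts differently, and a window is that of the RefSeq start. Among the genes counted, that start lies inside the GENCODE 29 gene by 464 bases in ZFAS1, 308 in SNHG32 and 1259 in SNHG12. It lies 15 bases inside in SNHG5 and is the same in SNHG18. The count thus holds for RefSeq starts alone, and starts from GENCODE were not examined. The windows of 3 such hosts, and of SNHG1, a host without that start, run from 30 bases before the RefSeq first base to 30 from it on, with the pyrimidine run that begins at the first base in capitals.
ZFAS1 (chr20:49278612-49278671, plus strand): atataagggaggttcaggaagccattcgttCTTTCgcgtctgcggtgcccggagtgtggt
SNHG32 (chr6:31834886-31834945, plus strand): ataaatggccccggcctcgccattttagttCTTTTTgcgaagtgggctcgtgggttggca
SNHG5 (chr6:85678704-85678763, minus strand): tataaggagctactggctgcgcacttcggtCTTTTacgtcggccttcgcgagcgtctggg
SNHG1 (chr11:62855856-62855915, minus strand): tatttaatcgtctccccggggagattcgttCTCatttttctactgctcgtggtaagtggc
GAS5 and EPB41L4A-AS1, the 2 snoRNA hosts with the largest fall, share the 10 bases that end just before the RefSeq first base, TCATGAATTC, here in capitals. The RefSeq start of GAS5 lies 163 bases upstream of the gene as annotated in GENCODE 29, and that of EPB41L4A-AS1 is the same in both. Whether GAS5 has a pyrimidine run at its GENCODE start was not examined.
GAS5 (chr1:173869016-173869075, minus strand): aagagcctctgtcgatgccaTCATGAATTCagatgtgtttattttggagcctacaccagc
EPB41L4A-AS1 (chr5:112160496-112160555, plus strand): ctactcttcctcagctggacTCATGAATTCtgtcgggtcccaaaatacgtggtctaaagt
This shared stretch was noticed in the printed windows and then counted. Because it was defined from the windows of GAS5 and EPB41L4A-AS1, their own matches were fixed in advance. The count is a description and no test of a shared start element. The stretch stood at that place in 2 of the 35116 windows, those of GAS5 and EPB41L4A-AS1, and anywhere on either strand in 14 windows (0.0399%). Of these 14 genes 5 were tested, and apart from the 2 hosts they were ZRANB1 (log2 fold change -0.56, adjusted p = 3.85e-05), DCUN1D1 (-0.15, 0.085) and SOX6 (-0.06, 0.954). Of 3 further motifs searched on both strands, CACGTG lay in the windows of 5 of the 37 genes (NORAD, OIP5-AS1, SNHG7, SNHG30 and TUG1; 7.26% of all windows), a heat shock element (GAA, TTC and GAA, each 2 bases apart) in that of GAS5 (0.49% of all windows) and TGATGNAA in none (3.62% of all windows). These matches describe letters in a window and no binding was measured.

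Most of the host genes were lower in the knockdown cells. For the mean of both hairpins against shControl, 24 of the 40 tested genes were called lower (Benjamini-Hochberg adjusted p under 0.05 over all tested genes), 5 higher and 11 neither, with a median log2 fold change of -0.42. Over all 16039 tested genes 28.9% were called lower, 28.6% higher and 57.5% in either direction, with a median of -0.03. A fall of more than 1 on the log2 scale was called in 13 of the 40 genes against 8.09% of all tested genes, and a rise of that size in 1 of 40 against 4.61%. All 4 knockdown libraries lay below both control libraries for 24 of the 40 (34.2% of all tested genes), above both for 7 (32.7%), and the groups overlapped for 9. Scaling by total counts without TMM factors moved the median of all tested genes to -0.18 and that of the 40 genes to -0.57, with 25 of them called lower and 4 higher, against 37.6% and 21.2% of all tested genes at that scaling.

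**Figure D1:**
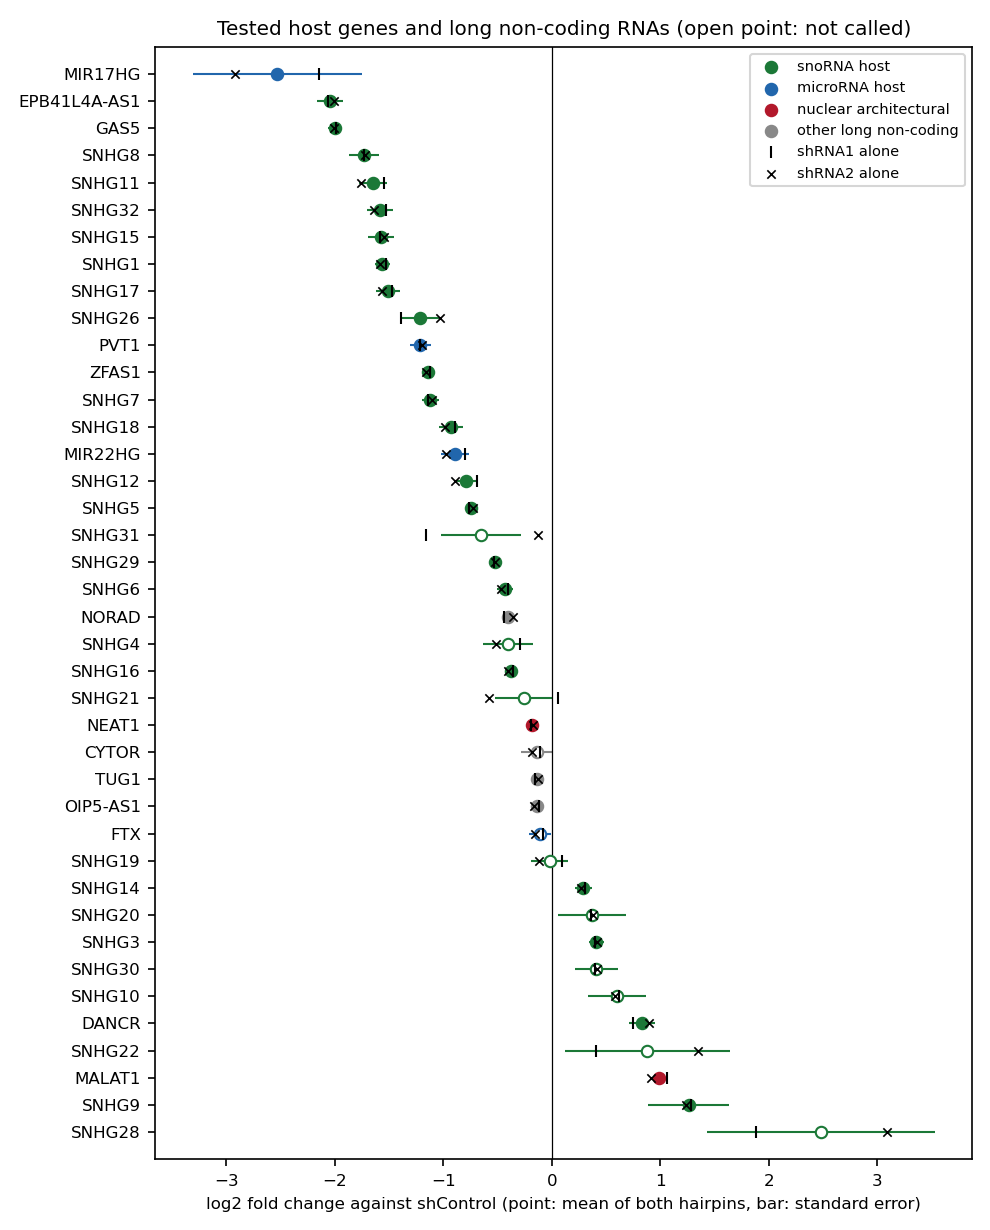
Log2 fold change against shControl (x axis) of each of the 40 tested genes (y axis, ordered by the mean of both hairpins), with points for the mean of both hairpins, bars for its standard error, filled points for called genes and small marks for each hairpin alone. Of the 40 points, 24 filled ones lie left of 0 and 5 right of it, and the marks of the hairpins lie close together except in scarce genes such as MIR17HG, SNHG31 and SNHG28.

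The hairpins were also taken one by one. With shRNA1, 24 of 40 were called lower and 5 higher (25.6% and 26.8% of all tested genes, 52.4% in either direction), and with shRNA2, 23 were lower and 6 higher (26.1% and 26.7%, 52.8% in either direction). Leaving out shRNA2 replicate 2 lowered the count called higher with shRNA2 to 3. In the test of shRNA1 against shRNA2 itself, edgeR called 0 of the 40 (0.0312% of all tested genes were called, 0.00623% higher and 0.0249% lower with shRNA1), the smallest adjusted p was 0.905, 2 genes had an unadjusted p under 0.05 (MALAT1 and SNHG31), and DESeq2 called 0. The hairpins' fold changes lay within 0.25 log2 of each other for 34 of the 40 genes, and the largest gap was 1.21, in the scarce gene SNHG28.

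The snoRNA hosts were most of the tested genes. Of 31 genes with an annotated snoRNA inside them, 30 were tested. Of these, 17 were called lower, 4 higher and 9 neither, with a median log2 fold change of -0.59. Over all tested genes 28.9% were called lower and 28.6% higher, with a median of -0.03. Among the other tested genes, 3 of 4 microRNA hosts, 1 of 2 nuclear RNAs and 3 of 4 remaining long non-coding RNAs were called lower. Calls lower were thus not particular to the snoRNA hosts. Falls of more than 1 on the log2 scale were called in 11 of the 30 snoRNA hosts and 2 of the 4 microRNA hosts. They were called in 0 of the 2 nuclear RNAs and 0 of the 4 remaining RNAs, against 8.09% of all tested genes. Together the snoRNA hosts summed to 1195 and 1221 CPM in the control libraries and to between 698 and 727 CPM in the 4 knockdown libraries. In these bulk libraries a smaller share of cells with a transcript and less of it per cell cannot be told apart.

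GAS5, whose introns hold 11 snoRNAs in RefSeq, was the most abundant of the strongly lowered hosts. It stood at 125 and 129 CPM in the control libraries, at 30.1 and 33.8 CPM with shRNA1 and at 31.9 and 31.0 CPM with shRNA2. All 4 knockdown libraries were far below both controls, and their level was 25% of the control level (log2 fold change -2.0, SE 0.06, adjusted p = 2.7e-13). GAS5 lies at chr1:173863900-173868882 on the minus strand in GENCODE 29 on GRCh38.

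EPB41L4A-AS1, which hosts 1 snoRNA, fell by a like amount. Its level was 22.3 and 22.6 CPM in controls, 5.24 and 5.49 CPM with shRNA1 and 5.0 and 6.22 CPM with shRNA2. The groups were well apart, at 24.4% of control (log2 fold change -2.04, SE 0.12, adjusted p = 1.4e-09). EPB41L4A, a protein-coding gene on the opposite strand over 49.6% of the host's exon bases, was higher in the knockdown cells (6.96 CPM in controls, 11.3 and 10.7 CPM with each hairpin, log2 fold change 0.66, SE 0.16, adjusted p = 0.00247). Whether the counting used strand is not given in the sources used here, so reads of the 2 genes over the shared bases cannot be told apart.

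SNHG1, a host on chromosome 11 and a transcript often raised in tumours, fell to 34.0% of its control level. It has 7 snoRNA entries in GENCODE 29, with SNORD22 entered more than once, and 9 in RefSeq. It measured 63.0 and 65.2 CPM in controls, 23.0 and 21.3 CPM with shRNA1 and 21.6 and 21.2 CPM with shRNA2 (log2 fold change -1.56, SE 0.07, adjusted p = 3.2e-11). SNHG8, a short host on chromosome 4 with 1 snoRNA, read 25.8 and 26.4 CPM in controls, 9.41 and 6.43 CPM with shRNA1 and 7.09 and 8.85 CPM with shRNA2 (log2 fold change -1.73, SE 0.14, adjusted p = 5.5e-08). In both hosts the highest knockdown library stayed below the lowest control library.

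SNHG15, on chromosome 7 with 1 snoRNA, is known as a short-lived transcript. The control libraries gave 25.9 and 25.3 CPM, those with shRNA1 7.46 and 9.57 CPM and those with shRNA2 7.92 and 9.57 CPM (log2 fold change -1.57, SE 0.12, adjusted p = 1.8e-08). SNHG32, known as C6orf48 in older annotation and listed there as protein-coding, had 20.5 and 18.9 CPM in controls, 6.92 and 6.69 CPM with shRNA1 and 6.78 and 5.79 CPM with shRNA2 (log2 fold change -1.58, SE 0.12, adjusted p = 2.2e-08). SNHG26, a host with 1 snoRNA on chromosome 7, stood at 10.2 and 10.2 CPM in controls, 4.70 and 3.14 CPM with shRNA1 and 5.03 and 4.93 CPM with shRNA2 (log2 fold change -1.21, SE 0.18, adjusted p = 2.4e-05). None of the 3 had a knockdown library within the range of its controls.

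SNHG11 and SNHG17 are neighbours, 11.2 kb apart on opposite strands of chromosome 20 (chr20:38446578-38450921 and chr20:38420588-38435353), and both were lower. SNHG11 read 17.6 and 20 CPM in controls, 6.25 and 6.64 CPM with shRNA1 and 5.86 and 5.21 CPM with shRNA2 (log2 fold change -1.65, SE 0.13, adjusted p = 1.9e-08). SNHG17, with 5 annotated snoRNAs, read 35.9 and 33.5 CPM in controls, 10.9 and 14.0 CPM with shRNA1 and 12.6 and 10.9 CPM with shRNA2 (log2 fold change -1.51, SE 0.11, adjusted p = 8.6e-09). Every knockdown library of either gene was below both controls.

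**Figure D2:**
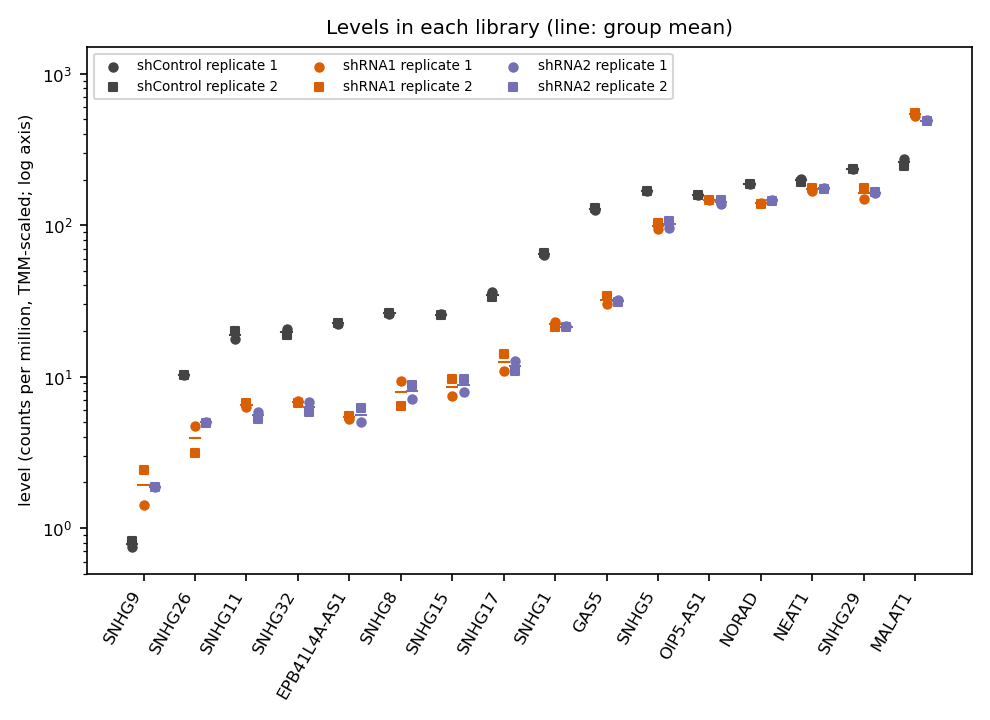
Level in CPM (y axis, log scale) of 16 genes (x axis, ordered by mean level) in each of the 6 libraries, with short lines for group means. The knockdown libraries of GAS5 (30.1 to 33.8 CPM) lie far below its controls (125 and 129 CPM), and MALAT1 and SNHG9 are the 2 genes whose knockdown libraries lie above the controls.

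SNHG29 and SNHG5, the 2 most abundant hosts in the control cells, were both lower. SNHG29, a host on chromosome 17 that older annotation calls LRRC75A-AS1, gave 234 and 236 CPM in controls, 149 and 176 CPM with shRNA1 and 162 and 166 CPM with shRNA2 (69.5% of control, log2 fold change -0.52, SE 0.06, adjusted p = 2.5e-05). LRRC75A, on the opposite strand over 12.0% of its exon bases, was lower too (log2 fold change -1.91, SE 0.32). SNHG5, whose start is a pyrimidine run, gave 168 and 167 CPM in controls, 94.8 and 103 CPM with shRNA1 and 96.0 and 106 CPM with shRNA2 (59.7% of control, log2 fold change -0.74, SE 0.05, adjusted p = 2.9e-09). ZFAS1, an antisense host at the 5′ end of ZNFX1 with 3 snoRNAs, was at 45.4% of control (log2 fold change -1.14, SE 0.06). Per kilobase of annotated exon, SNHG29 (62.6 CPM per kb), SNHG5 (59.7) and SNHG6 (39.4) were the 3 highest of the 43 genes in control cells, and MALAT1 had 29.4 CPM per kb. Per kilobase of the median annotated transcript MALAT1 ranked highest (541 CPM per kb), so the order between genes differs with the length used.

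The other hosts called lower were SNHG7 (log2 fold change -1.12), SNHG18 (-0.93), SNHG12 (-0.79), SNHG6 (-0.43) and SNHG16 (-0.38), each with standard errors of 0.05 to 0.11. None of them had a knockdown library as high as its lower control. Of the 7 genes whose RefSeq start is C and 4 pyrimidines, 5 were called lower (SNHG5, SNHG12, SNHG18, SNHG32 and ZFAS1) and 0 higher. SNHG4 and SNHG19 were not called. Of all 37 genes with a window 20 were lower and 4 higher.

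Hosts that rose were fewer. DANCR, known as a suppressor of differentiation in progenitor cells and the host of 1 snoRNA, was the largest rise among the hosts above 10 CPM. It read 10.3 and 10.8 CPM in controls, 16.9 and 18.7 CPM with shRNA1 and 22 and 17.4 CPM with shRNA2 (log2 fold change 0.83, SE 0.12, adjusted p = 2.8e-05). SNHG3, which shares a locus with the chromatin factor gene RCC1, was at 133% of control (28.1 and 30 CPM in controls, 36.7 to 40.0 CPM in knockdown libraries, log2 fold change 0.41, SE 0.07, adjusted p = 2.2e-04). RCC1 overlaps 5.92% of the exon bases of SNHG3 on the same strand and had the same log2 fold change of 0.41 (SE 0.06, adjusted p = 1.4e-05). SNHG12, 67.6 kb from SNHG3 on the other strand of chromosome 1, moved the opposite way (log2 fold change -0.79, SE 0.11).

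SNHG14, the long host of the Prader-Willi snoRNA clusters on chromosome 15, has 84 annotated snoRNAs in GENCODE 29. It was called higher by a small margin (33.4 and 35.6 CPM in controls, 39.3 to 45.1 CPM in knockdown libraries, log2 fold change 0.29, SE 0.08, adjusted p = 0.00491). With total counts as the scale the value was 0.13 (adjusted p = 0.154), and without shControl replicate 1 it was 0.23 (0.0664), so that call rests on those choices. SNRPN, the small nuclear ribonucleoprotein gene that overlaps SNHG14 on the same strand, was higher too (log2 fold change 0.47, SE 0.04).

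SNHG9, a host of 1 snoRNA next to the ribosomal protein gene RPS2 on chromosome 16, was the largest rise called for the mean of both hairpins but is scarce. It had 14 and 23 counts in controls (0.751 and 0.820 CPM), 21 and 46 with shRNA1 (1.41 and 2.41 CPM) and 67 and 39 with shRNA2 (1.86 and 1.87 CPM). All knockdown libraries were above both controls (log2 fold change 1.26, SE 0.37, adjusted p = 0.00914), and leaving out either control library ended the call (adjusted p = 0.0607 and 0.0513). SNHG19, 189 kb away, was not called (log2 fold change -0.02, SE 0.17).

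**Figure D3:**
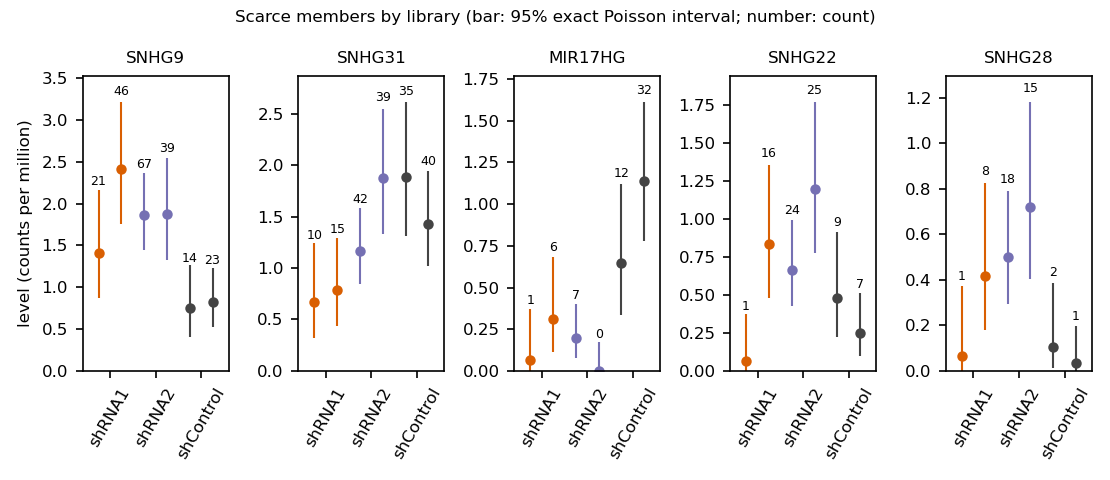
Level in CPM (y axis) of 5 scarce genes in each of the 6 libraries (x axis, by group), with bars for 95% exact Poisson intervals of the count printed above each bar. MIR17HG is highest in the 2 control libraries (12 and 32 counts) and SNHG9 lowest there (14 and 23 counts), while SNHG31, SNHG22 and SNHG28 overlap between groups.

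Among the hosts that were not called, SNHG31, SNHG4, SNHG21, SNHG19, SNHG20, SNHG30, SNHG10, SNHG22 and SNHG28, all 9 stood below 10 CPM in every library. SNHG28 had 2 and 1 counts in controls against 1 and 8 with shRNA1 and 18 and 15 with shRNA2. It was called with shRNA2 (log2 fold change 3.09, adjusted p = 0.0256) and not in the mean of both hairpins (2.48, SE 1.05, adjusted p = 0.0558). Another row, RP11-190A12.7, covers 100% of the exon bases of SNHG28 on the same strand, and its fold change had the opposite sign. It averaged 1.23 CPM in controls and 0.705 and 0.455 CPM with shRNA1 and shRNA2. RP11-190A12.7 was not called (log2 fold change -1.11, SE 1.00), and how reads were divided between these rows was not tested. SNHG31 was called with shRNA1 (-1.16, adjusted p = 0.0474) and not with shRNA2 (-0.13, adjusted p = 0.816), and the difference between the hairpins was not called. SNHG25 (1 to 4 counts per library) and H19, an imprinted fetal RNA (0 to 2 counts), were too scarce to test, and SNHG27, for which no snoRNA is annotated, had 0 counts in every library.

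The snoRNAs themselves could not be followed here. The table has 164 rows for small RNAs inside 37 of the 43 genes, and 145 of them had at most 1 count in every library. In 30 rows the count was exactly 1 in all 6 libraries although their depths differ, which is not the spread that sampling of reads gives, so the origin of counts of 1 in this table is unclear and Poisson intervals of such counts may not hold. Only 10 reached 3 counts in any library, the highest being SNORA73B in SNHG3 (31 and 39 counts with shRNA1, 78 and 28 with shRNA2, 11 and 21 in controls).

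Of the 5 genes grouped as microRNA hosts (MIR17HG, MIR22HG, PVT1, FTX and H19), 4 were tested. MIR17HG, MIR22HG and PVT1 were called lower and FTX was not. The annotation also places a microRNA inside CYTOR, DANCR, NEAT1 and SNHG20, which are described in other groups, and of these NEAT1 was called lower and DANCR higher. MIR17HG is the precursor of the miR-17-92 cluster, whose microRNAs act on cell cycle and survival genes, and MIR22HG gives miR-22. Their mature microRNAs, from RefSeq on GRCh38.p14, are given with the seed (bases 2 to 8) in capitals, because they name which products the lowered precursors encode.
hsa-miR-17-5p: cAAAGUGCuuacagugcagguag
hsa-miR-20a-5p: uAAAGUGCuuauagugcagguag
hsa-miR-18a-5p: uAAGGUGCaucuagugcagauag
hsa-miR-19a-3p: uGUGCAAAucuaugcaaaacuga
hsa-miR-19b-3p: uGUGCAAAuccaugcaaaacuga
hsa-miR-92a-3p: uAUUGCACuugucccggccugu
hsa-miR-22-3p: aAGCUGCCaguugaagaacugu
The first 6 lie in MIR17HG on chromosome 13 (from chr13:91350618-91350640 to chr13:91351361-91351382, plus strand) and the last in MIR22HG (chr17:1713914-1713935, minus strand). miR-17-5p and miR-20a-5p share the seed AAAGUGC, and miR-19a-3p and miR-19b-3p share GUGCAAA. Mature microRNAs were not measured in these libraries.

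MIR17HG had 12 and 32 counts in controls (0.644 and 1.14 CPM), 1 and 6 with shRNA1 (0.0672 and 0.314 CPM) and 7 and 0 with shRNA2 (0.195 and 0 CPM). For the library at 0, 3 counts would be 0.144 CPM, and the exact 95% interval shown in the plot of scarce genes reaches 0.176 CPM. Every knockdown library was below both controls (log2 fold change -2.53, SE 0.78, adjusted p = 0.0114), although shRNA1 alone was not called (adjusted p = 0.0787). Without shControl replicate 2 the value was -2.07 and no longer called (adjusted p = 0.223). At these counts MIR17HG does not answer to the description of an abundant RNA.

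MIR22HG read 12.4 and 13.3 CPM in controls and 6.42 to 7.63 CPM in knockdown libraries (log2 fold change -0.89, SE 0.13, adjusted p = 3.5e-05). PVT1, the long non-coding neighbour of MYC and host of several microRNAs, read 25.4 and 24.8 CPM in controls and 10.0 to 11.7 CPM in knockdown libraries (log2 fold change -1.21, SE 0.10, adjusted p = 6.3e-08). FTX, an RNA of the X inactivation centre, was near its control level (21.7 to 25.5 CPM against 28.2 and 23.9 CPM, log2 fold change -0.11, SE 0.10, adjusted p = 0.352). JPX, on the opposite strand over 37.1% of the exon bases of FTX, was called lower (log2 fold change -0.51, SE 0.08).

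MALAT1, the most abundant of the 43 genes in every library, went the other way from most of them. It stood at 274 and 246 CPM in controls, 529 and 552 CPM with shRNA1 and 491 and 487 CPM with shRNA2. The knockdown level was 198% of control, with no overlap (log2 fold change 0.99, SE 0.04, adjusted p = 1.3e-10). NEAT1, which scaffolds paraspeckles and lies 52.1 kb from MALAT1 on the same strand of chromosome 11, fell slightly: 201 and 194 CPM in controls, 169 and 177 CPM with shRNA1 and 177 and 174 CPM with shRNA2 (88.3% of control, log2 fold change -0.18, SE 0.04, adjusted p = 5.5e-04). Against a fold of 1.2 the NEAT1 change was not called.

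MALAT1 also set part of the total. All 43 genes together took 0.236% and 0.240% of the counts in the control libraries and 0.176% to 0.184% in the knockdown libraries. On the TMM-scaled level they summed to 2209 and 2226 CPM against 1822 to 1910 CPM. Without MALAT1 and NEAT1 the sums were 1752 and 1769 CPM against 1154 to 1180 CPM.

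Of the remaining long non-coding RNAs, NORAD changed most. NORAD, which binds the PUMILIO proteins in the cytoplasm, read 188 and 187 CPM in controls, 140 and 137 CPM with shRNA1 and 147 and 145 CPM with shRNA2 (75.7% of control, log2 fold change -0.40, SE 0.04, adjusted p = 1.1e-07). OIP5-AS1, also called cyrano, read 158 and 159 CPM in controls, 146 and 146 CPM with shRNA1 and 137 and 146 CPM with shRNA2 (log2 fold change -0.14, SE 0.04, adjusted p = 0.00700). RP11-16O9.3, on the same strand over 2.58% of the exon bases of OIP5-AS1, averaged 12.1 CPM in controls. With shRNA1 and shRNA2 it averaged 0.392 and 0.306 CPM, and it was not called (log2 fold change -4.94, SE 2.24). TUG1, named for its induction by taurine, was 102 to 110 CPM in knockdown libraries against 122 and 111 CPM (log2 fold change -0.14, SE 0.05, adjusted p = 0.0255), was not called with shRNA2 alone (adjusted p = 0.0776), and lost its call when shRNA1 replicate 2 (adjusted p = 0.133), shRNA2 replicate 1 (0.0585) or shControl replicate 1 (0.313) was left out. DESeq2 did not call TUG1 (adjusted p = 0.0644), and against a fold of 1.2 neither TUG1 nor OIP5-AS1 was called. CYTOR, which has a near-identical copy elsewhere on chromosome 2 so that its reads are uncertain, was not called (19.6 to 25.2 CPM against 20.8 and 27.4 CPM, log2 fold change -0.14, SE 0.14). RP13-511M20.1, on the same strand over 2.46% of the exon bases of CYTOR, was called lower. It averaged 28.9 CPM in controls and 11.3 and 10.9 CPM with shRNA1 and shRNA2 (log2 fold change -1.38, SE 0.12). How reads were divided between such overlapping rows was not tested.

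The pathways in which these RNAs take part are given next by lists, each against 28.6% higher and 28.9% lower over all tested genes and a median of -0.03. Cytosolic ribosomal proteins, which share the pyrimidine start with several hosts, were called higher in 75 of 79 (median log2 fold change 0.39), lower in 1 (RPL3, -0.07, a call that ended when either shRNA1 library, shRNA2 replicate 1 or the second control library was left out) and neither in 3. RPL6 had a log2 fold change of 0.87 (408 CPM in controls, 745 CPM with each hairpin) and RPL7A, RPL24 and RPL27 between 0.74 and 0.77. The median was similar with shRNA1 (0.40) and shRNA2 (0.38). With total counts as the scale 68 were higher and 3 lower.

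Protein-coding genes that also carry snoRNAs in their introns were called higher in 11 of 15, lower in 3 and neither in 1, with a median of 0.24. HSPA8, a constitutive chaperone, had the largest change (248 CPM in controls, 1480 and 1491 CPM with shRNA1 and shRNA2, log2 fold change 2.58, SE 0.03), and NCL, the nucleolar protein nucleolin, rose by 0.74 (SE 0.03). EIF4A2, a translation helicase, fell by 0.54 on the log2 scale (SE 0.04), and SLC25A3, the mitochondrial phosphate carrier, rose by 0.44 (SE 0.03).

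Proteins that assemble or form snoRNPs were higher in 12 of 18, lower in 1 and neither in 5 (median 0.28). NOP10 and NHP2, core proteins of the pseudouridylation particles, rose by 0.80 (SE 0.07) and 0.67 (SE 0.05), and RUVBL2 and NOLC1, assembly factors, by 0.49 and 0.29. NAF1, an assembly factor of the pseudouridylation particles, was the one called lower (6.14 CPM in controls, 3.82 and 2.89 CPM, log2 fold change -0.89, SE 0.20).

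Factors of nonsense-mediated decay were higher in 12 of 23, lower in 6 and neither in 5 (median 0.16). The 4 with the smallest p were NCBP1, a cap-binding protein (log2 fold change 0.92, SE 0.07), SMG1, the kinase of the pathway (-0.69, SE 0.05), ETF1, the release factor (0.56, SE 0.04), and NCBP2, the partner of NCBP1 (-0.70, SE 0.06). UPF1, the central helicase, rose by 0.45 (SE 0.04).

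Paraspeckle and nuclear speckle proteins were higher in 14 of 18 rows, lower in 1 (SRSF3, -0.50, SE 0.03) and neither in 3 (median 0.64), with 2 lower without shRNA2 replicate 1. SRSF1, a splicing factor, TARDBP, an RNA-binding protein, and SMARCA4, a chromatin remodeller, rose by 1.12, 1.11 and 0.96 (SE 0.04 each). MATR3, a nuclear matrix protein whose row overlaps SNHG4, has 2 rows in the table.

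MicroRNA processing factors were higher in 6 of 10 and lower in 4 (median 0.28): DROSHA and DGCR8, which cut the primary transcript, rose by 0.73 and 0.80, and XPO5, the exporter, and AGO3 fell by 0.39 and 0.65 on the log2 scale. RNA-binding partners of the listed RNAs were higher in 8 of 10 and lower in 2 (median 0.23), with KHSRP (0.91), IGF2BP3 (0.82), ELAVL1 (0.51) and RBMX (0.37) by smallest p. The 2 lower were PUM2 and IGF2BP1. The count higher was 4 with total counts as the scale and 5 without shControl replicate 2, and the count lower was 0 or 1 when the second library of either hairpin or any control library was left out.

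Sense-antisense and divergent partner genes were called higher in 3 of 8 tested (EPB41L4A, USP46 and ZNFX1), lower in 1 (NAF1, placed in this list by mistake, since it adjoins none of the 43 genes) and neither in 4 (median 0.01). Targets of p53 and of growth arrest were lower in 6 of 10, higher in 2 (0 without shControl replicate 1) and neither in 2 (median -0.36). GADD45A, a growth arrest gene, stood at 135 CPM in controls and 18.4 and 15.6 CPM with each hairpin (log2 fold change -2.99, SE 0.07). CDKN1A, which encodes the inhibitor p21, stood at 207 against 65.2 and 67.5 CPM (-1.64, SE 0.05). SESN2 and BTG1 had log2 fold changes of -1.90 and -1.46. The 2 called higher were BTG2 (1.21, SE 0.30) and SESN1 (0.70, SE 0.22), and TP53INP1 and ZMAT3 were not called.

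**Figure D4:**
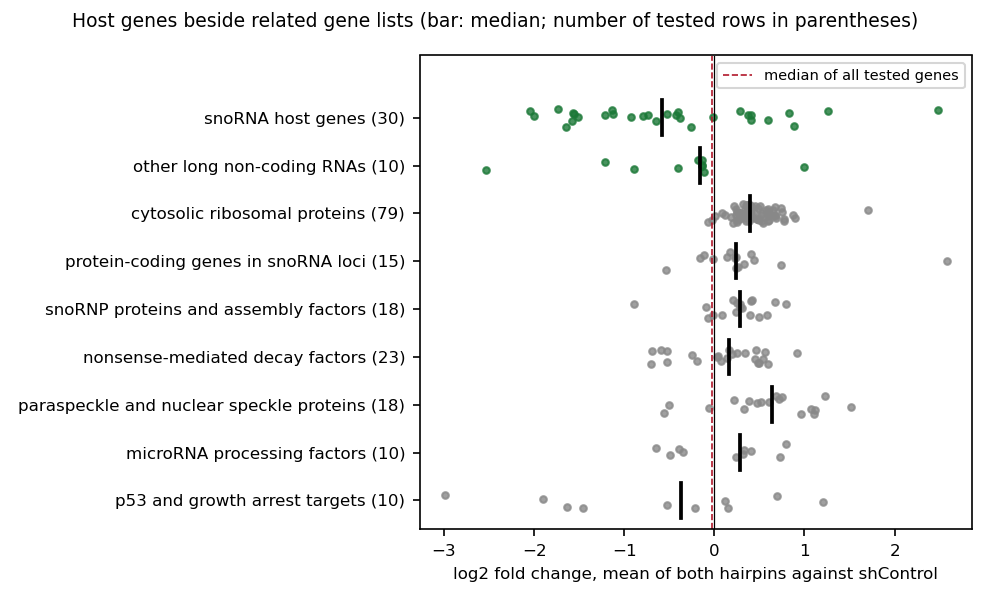
Log2 fold change of the mean of both hairpins against shControl (x axis), with 1 point per tested row of each list. Points are green for the tested host genes and other long non-coding RNAs and grey for 7 gene lists. A black bar marks each median and a dashed line the median of all tested genes. The snoRNA hosts centre at -0.59 and the cytosolic ribosomal proteins at 0.39.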

How the data were processed

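RNA-seq counts, whole numbers for each gene as the authors deposited them, were used for 6 libraries. Per the submitters' processing notes the reads were checked with FastQC 0.11.9, trimmed with Trim Galore 0.6.7, aligned to hg38 with HISAT2 2.2.1 and passed through StringTie 2.2.1. The counting tool is not given in the sources used here, and the same holds for annotation release and strand setting.

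Genes passing filterByExpr by group (16039) were TMM-scaled and fitted with edgeR 4.0.16 (robust quasi-likelihood, group means, all 6 libraries, R 4.3.3). A gene was called at an adjusted p (Benjamini-Hochberg, over all tested genes) under 0.05. Single levels have 95% exact Poisson intervals, which cover counting error only, and a count of 0 has a floor of 3 counts. Positions and overlaps come from GENCODE 29 (96.3% of gene IDs, all 43 genes). The code was tested on simulated data.

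The genes and lists were chosen with earlier results of these data known. Values in every library are given for the 10 largest changes called with both hairpins and in their mean, and for the 6 highest levels. Up to 4 genes per list were named by smallest p, and any further list gene was picked with its value in view. A gene that this rule covers is not reported here. Alternatives were DESeq2 1.42.0, RLE factors, total counts, 2 other filters, a replicate block, a fit to just the compared groups, glmTreat at a fold of 1.2, and leaving out each library. Replicates within groups differed by more than sampling noise (chi-square per degree of freedom 4.57 to 6.64).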

Additional observations from a re-analysis of the deposited data

How the results depend on the processing

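For the mean of both hairpins the counts of 24 genes lower and 5 higher ranged from 21 to 25 and from 4 to 7 over 14 alternatives, and 23 of the 29 called genes kept their call wherever an alternative gave a value. The median of -0.42 was -0.57 with total counts and -0.53 to -0.40 when 1 library was left out. With the replicate block 24 were lower and 5 higher, the same counts as without it, and same-numbered libraries did not deviate together (correlations -0.029 to 0.0107). Total counts took the share of higher among all called genes from 49.7% to 36%, snoRNP proteins lower to 2, RNA-binding partners higher to 4, ribosomal proteins lower to 3, and partner genes to 1 higher and 2 lower. Against a fold of 1.2 the count was 3 higher with shRNA1, where 18.3% of all tested genes were higher. At that fold, with the hairpins averaged, 19.3% of all tested genes were higher and 20.2% lower. The list counts there were 5 snoRNP proteins higher, 2 microRNA processing factors higher, and 4 RNA-binding partners higher and 0 lower. They were also 0 ribosomal proteins lower, 4 protein-coding genes in snoRNA loci higher and 1 lower, and 1 partner gene higher. RNA-binding partners were 5 higher without a filter, and 1 lower under DESeq2 or with only the groups compared. Leaving out 1 library gave 3 to 6 higher with shRNA2, 5 to 8 RNA-binding partners higher and 0 to 2 lower, 0 to 1 ribosomal proteins lower, 1 to 2 speckle proteins lower and 0 to 2 p53 targets higher. Genes that were not called changed sign when 1 library was left out: CYTOR ran from -0.33 to 0.07, FTX from -0.23 to 0.00, SNHG19 from -0.21 to 0.21 and SNHG22 from -0.47 to 1.37. Among uncalled genes, 4 (FTX, SNHG10, SNHG28 and SNHG30) were called under some alternative. A group left with 1 library borrows its spread from the remaining groups. The causes were not tested. Few counts limit MIR17HG (0 to 32 per library), SNHG22 (1 to 25), SNHG28 (1 to 18), SNHG31 (10 to 42) and SNHG9 (14 to 67).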
